A study of Mus musculus with 48 samples.

Results

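The 10 genes described here are the p53 regulators and apoptosis genes Trp53, Mdm2, Mdm4, Cdkn1a, Ccng1, Bax, Bbc3, Bcl2l10, Bcl2l1 and Mcl1, taken by gene symbol from a table of 55421 genes. They were measured by Smart-seq2, a full-length RNA-seq method for minute samples, in 24 K49A and 24 WT mouse embryos that had reached 2 cells and were sequenced singly. In K49A, 1 residue of protamine 1 is exchanged; protamines replace histones in sperm. All embryos are labelled C57BL6 and were collected 26 to 28 h after fertilization. Neither the parent of origin of K49A nor the litter of an embryo is labelled, and p-values cover only the variation among the embryos sequenced. Counts per gene cannot show a change of 1 amino acid, so the genotype labels were not checked here. The word "dot" stands in the titles of K49A replicates 22, 23 and 24, and the labels do not explain it.

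p53, the product of Trp53, is a transcription factor that is kept low by the ubiquitin ligase Mdm2 and its partner Mdm4, and that accumulates after DNA damage. It then activates Cdkn1a, an inhibitor of cyclin-dependent kinases, Ccng1, a cyclin that feeds back on p53, and the death genes Bax and Bbc3. Bcl2l1 and Mcl1 encode relatives of BCL-2 that hold Bax in check, and Bcl2l10 encodes a further relative, abundant in oocytes, for which both protective and death-promoting activity have been described in mouse. In the 2-cell embryo, transcripts stored by the oocyte are being cleared while transcription from the embryo's own genome begins.

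Upstream sequences of Cdkn1a and Ccng1 are shown because these genes had the largest differences between the groups among the 10 and were the only members with a window that held 2 adjacent p53 half-sites. RefSeq promoter entries (GRCm38.p6) matched 9 of the 10 members, in 15 windows of 250 bases before a transcript start, and Bcl2l10 had no entry. The search took the p53 half-site by its consensus. The consensus reads alike on both strands. The search allowed 1 mismatch over a pair of half-sites with no spacer. The capitals mark the 20 bases of the pair. The Cdkn1a window lies at chr17:29090729-29090978 (plus strand) and its pair begins 51 bases before the transcript start. The other Cdkn1a window, at chr17:29093519-29093768, held 0 half-sites and 0 pairs. The Ccng1 window lies at chr11:40755287-40755536 (minus strand, read 5′ to 3′ along the gene) and its pair begins 195 bases before the start.
Cdkn1a: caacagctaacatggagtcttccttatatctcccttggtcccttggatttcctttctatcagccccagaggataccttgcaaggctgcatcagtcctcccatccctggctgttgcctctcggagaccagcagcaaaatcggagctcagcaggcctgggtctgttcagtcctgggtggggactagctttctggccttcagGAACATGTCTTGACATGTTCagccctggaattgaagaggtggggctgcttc
Ccng1: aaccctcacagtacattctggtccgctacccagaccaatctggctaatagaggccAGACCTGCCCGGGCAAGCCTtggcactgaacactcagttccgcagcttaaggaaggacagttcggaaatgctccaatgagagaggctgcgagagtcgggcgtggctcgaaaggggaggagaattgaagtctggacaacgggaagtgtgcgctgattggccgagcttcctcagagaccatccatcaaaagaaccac
Among all 32851 windows of the same length, 0.0761% held such a pair, and 7.13% held at least 1 half-site without a mismatch, which overlaps with the pair. At least 1 such half-site was present in windows of 5 members. These matches describe letters in a window and were not measured as sites of p53 in these embryos.

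Depth set how much could be seen. At least 100000 counts were reached by 17 K49A and 12 WT libraries, with 105627 to 4947276 counts in K49A and 421301 to 5309505 in WT. The 19 libraries below that minimum held at most 39135 counts and entered no test. A stricter set, called deep libraries, had at least 1000000 counts and 12000 detected genes and comprised 14 K49A and 10 WT embryos. Markers of the stage were present, with 26 of 27 genes of the 2-cell list and 19 of 20 oocyte genes passing the filter on low counts. The 26 tested genes of the 2-cell list had a median log2 fold change of -0.42, against 0.11 over all tested genes, with 6 positive, 3 at an unadjusted p under 0.05 and 0 called. Cumulus and granulosa markers summed to 31.8 to 426 CPM in K49A (median 139) and 42.4 to 425 in WT embryos (median 151), and sperm and spermatid markers to 4.36 to 221 CPM in K49A (median 40.2) and 13.3 to 57.0 in WT embryos (median 36.8). Plate rows 5 to 8 held the K49A embryos and rows 1 to 4 the WT embryos, so row and group cannot be told apart, whereas plate columns 2 to 6 held tested embryos of both groups. All embryos are labelled as 2-cell, and CPM and TPM are relative levels that show neither the number of cells nor the RNA per cell.

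The most abundant of the 10 transcripts were those of the BCL-2 relative Bcl2l10 and the p53 inhibitor Mdm4. Expressed as TPM, which allows levels of different genes to be compared per length, the median over all 29 embryos was 1705 TPM for Bcl2l10 and 1409 TPM for Mdm4. Bcl2l1 followed at 198 TPM and Cdkn1a at 175 TPM. The remaining medians were 49.6 TPM for Mdm2, 43.5 for Trp53, 33.7 for Bax, 18.5 for Mcl1, 8.63 for Bbc3 and 7.35 for Ccng1. In median level Bcl2l1 stood above the death genes Bax and Bbc3, Mcl1 lay between those 2 genes, and Mdm4 stood above Trp53.

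Some neighbours in this order were well separated and some were not. Mdm4 exceeded Bcl2l1 in 29 of 29 embryos, and Cdkn1a exceeded Mdm2 in 26 of 29. Bcl2l10 exceeded Mdm4 in 20 of 29, 11 of 17 K49A and 9 of 12 WT embryos. Bax was above Mcl1 in 21 embryos, Mcl1 above Bbc3 in 20 and Trp53 above Bax in 17. The pairs Bcl2l1 and Cdkn1a (15 of 29), Mdm2 and Trp53 (13 of 29) and Bbc3 and Ccng1 (14 of 29) changed places from embryo to embryo. When means replaced medians, 7 of the 9 neighbouring pairs kept their order. Among all genes, Bcl2l10 had a median rank of 61 by TPM and Mdm4 a median rank of 88, against 2601 for Trp53 and 7761 for Ccng1.

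**Figure D1:**
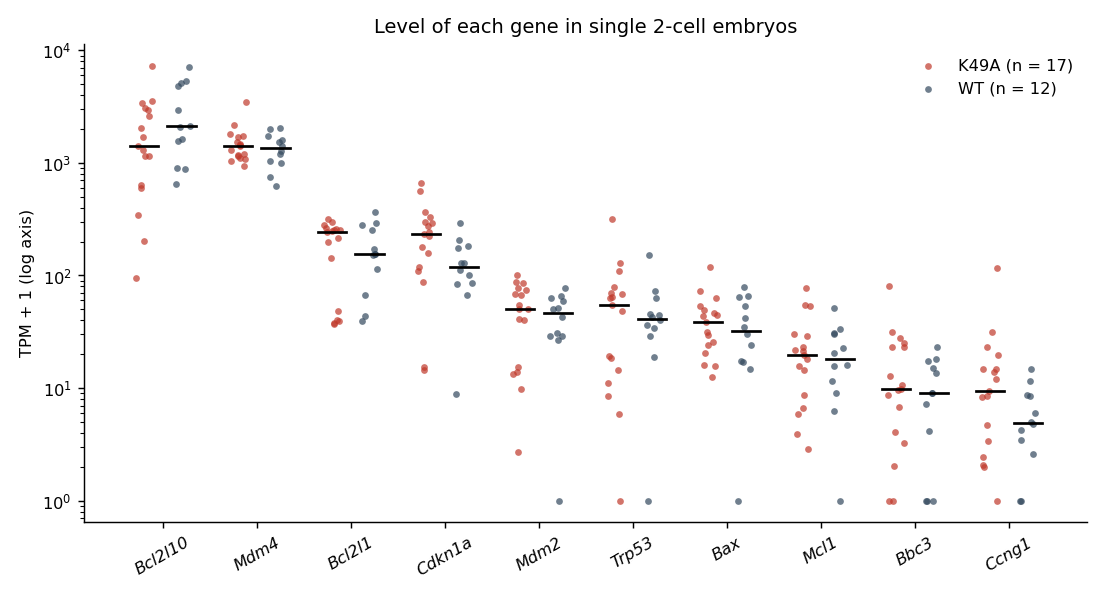
TPM + 1 (log axis) of each of the 10 genes in 17 K49A and 12 WT embryos; a point is an embryo, a black line is the median, and points at the bottom are embryos with 0. Bcl2l10 and Mdm4 lie above the other genes, and the K49A and WT points overlap for each gene.

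None of the 10 genes differed between K49A and WT embryos past the threshold. All 10 passed the filter on low counts, and edgeR's quasi-likelihood test with Benjamini-Hochberg adjustment over 12456 tested genes called 0 of them. The background was as sparse, with 2 genes called in all (0.0161%), both lower in K49A. At an unadjusted p under 0.05 the members numbered 2, Cdkn1a and Ccng1, against 963 of all tested genes (7.73%). Both were higher in K49A embryos, and 8 of the 10 members had a positive log2 fold change against 7272 of the 12456 tested genes. The median log2 fold change was 0.22 over the members and 0.11 over all tested genes. For no tested gene, members included, did the values of the groups fail to overlap.

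**Figure D2:**
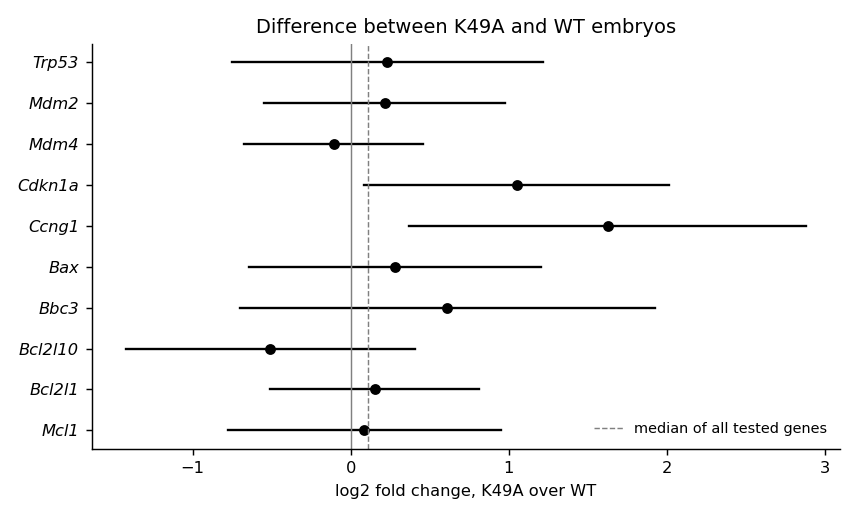
Log2 fold change of K49A over WT embryos for the 10 genes with its 95% interval (edgeR, n = 17 and 12); the dashed line marks the median of all tested genes, 0.11. The intervals of Cdkn1a and Ccng1 lie above 0 before adjustment, and those of the other 8 genes include 0.

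Trp53 (ENSMUSG00000059552, chr11:69580359-69591873, plus strand, GENCODE M21 on GRCm38, as for all gene positions below) and its inhibitors had overlapping values in K49A and WT embryos. Trp53 ranged up to 412 CPM in K49A embryos, with a lowest value of 0 and a median of 63.8, against 0, 61.0 and 179 CPM for the lowest, median and highest WT embryo. The embryos at 0 were K49A replicate 22 and WT replicate 10, in which a count of 0 allows levels of up to 24.7 and 4.83 CPM (3 counts, counting error only). The K49A maximum belonged to replicate 23, which lay above every WT embryo, while all other K49A embryos lay within the WT range. That range reached 0 only through WT replicate 10, which is not a deep library. Among deep libraries the lowest WT embryo had 38.0 CPM. K49A replicates 4, 8 and 16 lay below it, at 34.1, 30.2 and 24.8 CPM. The fitted difference was 0.23 ± 0.49 on the log2 scale (SE, edgeR's adjusted p = 0.972), with a 95% interval of -0.75 to 1.22. It was -0.18 without K49A replicate 23 and -0.14 without the 3 embryos titled "dot".

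Mdm2, the ligase that marks p53 for degradation and is itself a p53 target, had 11.9 CPM in the lowest, 97.8 in the median and 124 in the highest K49A embryo, against 0, 77.0 and 127 CPM in WT embryos. Mdm2 gave a log2 fold change of 0.21 ± 0.38 (SE; 95% interval -0.55 to 0.98; edgeR's adjusted p = 0.963), and the groups overlapped. It was 0.083 without WT replicate 10, the embryo with 0 Mdm2 counts. Mdm4 (chr1:132959484-133030561, minus strand), which blocks the activation domain of p53, spanned 1199 to 3843 CPM in K49A embryos (median 1643) and 377 to 2868 CPM in WT embryos (median 2253). Only 3 of 17 K49A embryos lay above the WT median, yet 2 lay above the WT maximum. The log2 fold change of Mdm4 was -0.11 ± 0.28 (SE, adjusted p = 0.979, edgeR), and its 95% interval of -0.67 to 0.46 was the narrowest among the members.

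The balance of the 2 inhibitors overlapped between the groups. Per length, Mdm4 transcripts outnumbered those of Mdm2 by a median of 23.5 times in K49A embryos (12.3 to 900, 17 embryos) and 28.0 times in WT embryos (14.8 to 77.5, the 11 embryos with an Mdm2 count). The highest K49A ratios belonged to replicates 14, 3 and 8, of which only replicate 8 was a deep library. Between deep libraries, the coefficient of variation of Mdm2 was 0.26 in K49A, the lowest of the members there, and 0.28 in WT. That of Mdm4 was 0.37 in K49A and 0.21 in WT, the lowest of the members in WT.

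Cdkn1a (ENSMUSG00000023067, chr17:29090976-29100727, plus strand), the cell-cycle inhibitor p21, had the second largest difference of the 10. It was counted in every tested embryo, with 17.8 CPM in the lowest, 250.2 in the median and 1238 in the highest K49A embryo, against 14.6, 158 and 480.2 CPM in WT embryos. K49A replicates 3, 8 and 22 (1238, 1094 and 495 CPM) lay above every WT embryo, and 13 of 17 K49A embryos lay above the WT median. The low end was mixed, with 17.8 and 18.3 CPM in K49A replicates 16 and 4 and 14.6 CPM in WT replicate 20. Means were 343 ± 335 CPM in K49A and 165 ± 117 CPM in WT embryos (SD, n = 17 and 12). The log2 fold change was 1.05 ± 0.48 (SE), a 2.07-fold higher level with a 95% interval of 0.09 to 2.02 on the log2 scale, at an unadjusted p of 0.0337 and an adjusted p of 0.564 in edgeR.

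Restricted to deep libraries, Cdkn1a gave 0.69 ± 0.52 on the log2 scale (SE, edgeR's adjusted p = 0.958). Of its 3 highest embryos by CPM, 2 are not deep, K49A replicates 3 and 22. The unadjusted p was 0.05 or more after 5 of the 29 embryos were left out in turn, K49A replicates 3 and 8 and WT replicates 5, 20 and 23. Within plate columns, the difference in mean log2(CPM + 1) was positive in 4 of 5 columns and ranged from -1.55 in column 4 to 3.39 in column 2. The summed level of blood cell markers was 121, 308 and 852 CPM in K49A replicates 3, 8 and 22, which ranked 7, 3 and 1 among the 29 embryos. The WT median was 27.8 CPM (11.8 to 63.9). K49A replicate 14 ranked 2 at 335 CPM, with Cdkn1a at the K49A median of 250.2 CPM. Sperm and spermatid markers summed to 221, 109 and 180 CPM in K49A replicates 3, 8 and 22, ranks 1, 4 and 3. K49A replicate 14 ranked 2 at 198 CPM, and the WT maximum was 57.0 CPM. Of these K49A embryos only replicate 8 is a deep library. Relations between these marker sums and Cdkn1a were not tested. Across K49A embryos the blood cell marker sum ran from 5.45 to 852 CPM with a median of 94.0. Of the 12 markers, Hba-a1, Hba-a2, Cd74 and Laptm5 were tested, all 4 at an unadjusted p under 0.05 and higher in K49A, while Hbb-bt, Hbb-bs and Tyrobp had 0 counts in every tested library. Of 18 cumulus and granulosa markers 5 were tested, and log2 fold changes were positive for 4 of these 5 (median 0.59). Among them were Kitl (2.08 ± 0.67, SE, unadjusted p = 0.00381) and Sparc (2.36 ± 0.82, unadjusted p = 0.00668), with adjusted p of 0.351 and 0.422 in edgeR. The remaining marker, Nr5a2, was lower in K49A (-0.92 ± 0.47, unadjusted p = 0.0590, adjusted p = 0.668, edgeR). Of 12 sperm and spermatid markers 4 were tested, all 4 with a positive log2 fold change (median 1.03). In edgeR 1 of them had an unadjusted p under 0.05 and 0 were called. The part of blood cell, cumulus, granulosa, sperm or spermatid transcripts in the Cdkn1a and Ccng1 results was not tested.

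Ccng1 (ENSMUSG00000020326, chr11:40748552-40755311, minus strand), cyclin G1, had the largest log2 fold change of the 10 and was the least abundant. It reached 357 CPM in K49A replicate 23, with a lowest K49A value of 0 and a median of 19.8, against 0, 13.02 and 43.8 CPM in WT embryos. K49A replicates 23, 24, 10 and 16 (357, 102, 66.2 and 66.2 CPM) exceeded every WT embryo. The other 13 K49A embryos overlapped with WT. Means were 50.04 ± 83.4 CPM in K49A and 16.2 ± 13.04 CPM in WT embryos (SD, n = 17 and 12), with a log2 fold change of 1.63 ± 0.62 (SE; 95% interval 0.37 to 2.88; unadjusted p = 0.0124, adjusted p = 0.452, edgeR). Without K49A replicate 23 the log2 fold change was 0.93 ± 0.54 (unadjusted p = 0.0924), and without the 3 "dot" embryos it was 0.76 ± 0.54 (unadjusted p = 0.168, adjusted p = 0.907). The within-column differences of Ccng1 were positive in 3 of 5 columns, from -1.48 in column 3 to 2.90 in column 4.

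Cdkn1a and Ccng1 did not peak in the same embryos. K49A replicate 3, with the highest Cdkn1a level by CPM, had 0 Ccng1 counts, which allows up to 7.29 CPM. K49A replicate 8 had 6.97 CPM of Ccng1. Over the 24 deep libraries the correlation of log2(CPM + 1) was r = -0.08 (permutation p = 0.718, adjusted 0.805) with Spearman's rho = -0.01 (p = 0.954, adjusted 0.972). Leaving out the 2 embryos farthest from the median of Cdkn1a gave r = -0.13. Cdkn1a and Trp53 gave r = 0.32 (permutation p = 0.130, adjusted 0.353) and rho = 0.32 (p = 0.125, adjusted 0.402). Without the 2 embryos farthest from the median of Trp53, r was 0.12. A p above the threshold at this number of embryos does not show that the levels are unrelated.

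The pro-apoptotic members were scarce and overlapped between the groups. Bax, which opens pores in the mitochondrial membrane, had 7.62, 22.3 and 79.8 CPM in the lowest, median and highest K49A embryo and 0, 17.2 and 58.1 CPM in WT embryos. The WT maximum was exceeded by 4 K49A embryos. The log2 fold change of Bax was 0.28 ± 0.46 (SE, adjusted p = 0.955, edgeR; 95% interval -0.64 to 1.20). Bbc3, which encodes the BH3-only protein PUMA, was at 0 in 2 of 17 K49A and 3 of 12 WT embryos, with medians of 10.4 CPM in K49A and 13.2 CPM in WT. Its maximum was 97.5 CPM in K49A replicate 23, against 21.01 CPM in WT. The log2 fold change of Bbc3 was 0.61 ± 0.65 (SE, adjusted p = 0.918, edgeR; 95% interval -0.70 to 1.92), and without K49A replicate 23 it was 0.10.

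K49A replicate 23, one of the embryos titled "dot", held the highest level of 3 of the 10 members, Trp53, Ccng1 and Bbc3, while it was the highest embryo for 6.23% of all tested genes. Its Cdkn1a level was 326 CPM, the sixth highest of the 29. K49A replicate 24, also titled "dot", was second for both Ccng1 and Bbc3, at 102 and 30.4 CPM. The third such embryo, replicate 22, had the smallest tested library and 0 counts of Trp53 and Bbc3. Among 25 other p53 target genes tested, replicate 23 was the highest embryo for 2, Zmat3 (28.8 CPM) and Ei24 (757 CPM). K49A replicate 3 was highest for 5 of the 25 and WT replicate 5 for 4, against 7.25% and 3.93% of all tested genes. Neither of these is a deep library. The blood cell marker sum of replicate 23 was 94.0 CPM, the K49A median. Its cumulus and granulosa marker sum was 426 CPM, rank 1 of 29, against a K49A median of 139 CPM. WT replicate 22 ranked 2 at 425 CPM. The part of such transcripts in the levels of replicate 23 was not tested.

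**Figure D3:**
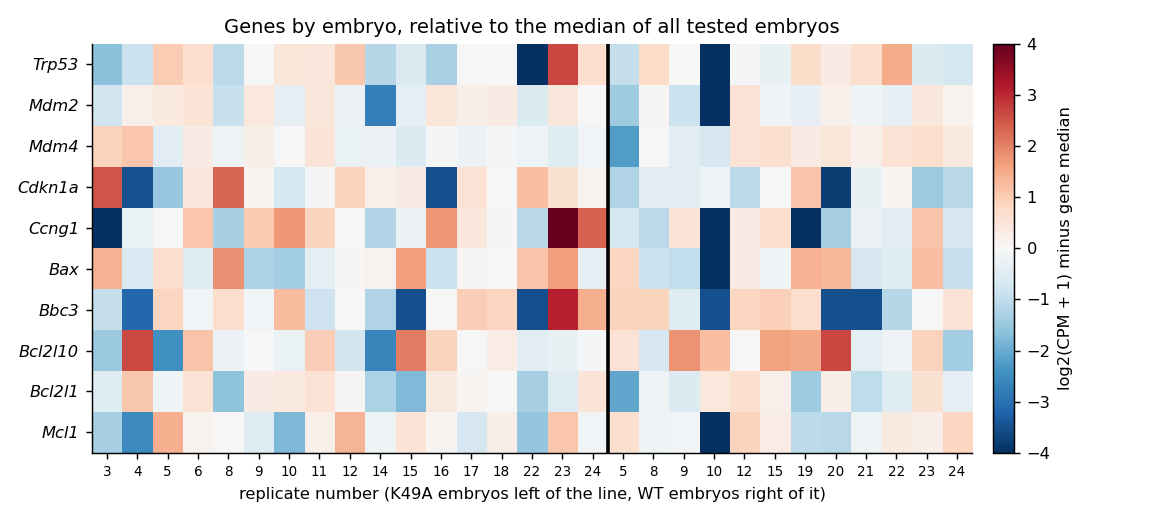
log2(CPM + 1) of each gene in each tested embryo minus that gene's median over all 29; red is higher, blue is lower, colours end at 4 in either direction, and K49A embryos stand left of the black line. K49A replicate 23 is red for Trp53, Ccng1 and Bbc3, K49A replicates 3 and 8 for Cdkn1a, and WT replicate 10 is blue for the 6 members at 0 there.

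Bcl2l10 (ENSMUSG00000032191, chr9:75347758-75351632, plus strand) spanned 226 to 8843 CPM in K49A embryos (median 1352) and 546 to 9007 CPM in WT embryos (median 2414). The highest K49A embryo was replicate 4 and the highest WT embryo was replicate 20. At the low end 3 K49A embryos, replicates 3, 5 and 14 (508, 257 and 226 CPM), lay below every WT embryo. Of these only replicate 5 is a deep library. Means were 2096 ± 2207 CPM in K49A and 2980 ± 2398 CPM in WT embryos (SD, n = 17 and 12), with a log2 fold change of -0.51 ± 0.45 (SE; edgeR's adjusted p = 0.897; 95% interval -1.42 to 0.41). It was -0.83 without K49A replicate 4 and -0.21 without WT replicate 20. Within plate columns the difference was positive in 2 of 5 columns, from -2.44 to 0.84.

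Bcl2l1, which encodes BCL-XL, had 109, 385 and 790.3 CPM in the lowest, median and highest K49A embryo and 87.4, 313 and 577 CPM in WT embryos. Bcl2l1 gave a log2 fold change of 0.15 ± 0.33 (SE; edgeR's adjusted p = 0.972; 95% interval -0.51 to 0.81). Mcl1, whose anti-apoptotic protein is short-lived, had 7.76, 50.4 and 141 CPM in K49A embryos and 0, 53.6 and 93.4 CPM in WT embryos. Mcl1 gave a log2 fold change of 0.09 ± 0.43 (SE; edgeR's adjusted p = 0.987; 95% interval -0.78 to 0.95). The values of the groups overlapped for both genes. Per length, Bcl2l10 made up a median of 88.0% of the summed TPM of Bcl2l10, Bcl2l1 and Mcl1 in K49A embryos (55.6 to 97.7%) and 92.8% in WT embryos (77.5 to 97.7%). The groups overlapped, with the lowest shares in K49A embryos.

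The level of Bcl2l10 followed the oocyte transcripts from embryo to embryo. Over the 24 deep libraries, log2(CPM + 1) of Bcl2l10 correlated with the oocyte score, the mean log2(CPM + 1) of 19 oocyte genes such as Gdf9, Bmp15 and Tcl1, at r = 0.83 (permutation p = 1e-05, the smallest that 100000 resamples can give, adjusted 0.00065 over 65 relations). Spearman's rho was 0.75 (p = 8e-05, adjusted 0.0052). Without the 2 embryos farthest from the median score r was 0.74, and it was 0.87 in the 14 K49A and 0.90 in the 10 WT embryos. By rank the groups differed more, with rho = 0.61 in K49A and 0.89 in WT embryos. Within plate columns 3 to 6, r over all tested embryos, 6 in each, was 0.90, 0.54, 0.76 and 0.80. These include K49A replicates 3 and 22 and WT replicates 5 and 10, which are not deep libraries. The 65 relations comprise each member with the oocyte score and with a score of 26 genes activated at the 2-cell stage, and each pair of members. Levels and scores come from the same libraries and share their scaling. Between the groups the 19 oocyte genes had a median log2 fold change of 0.41, with 14 positive and 0 called, opposite in sign to the -0.51 of Bcl2l10.

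**Figure D4:**
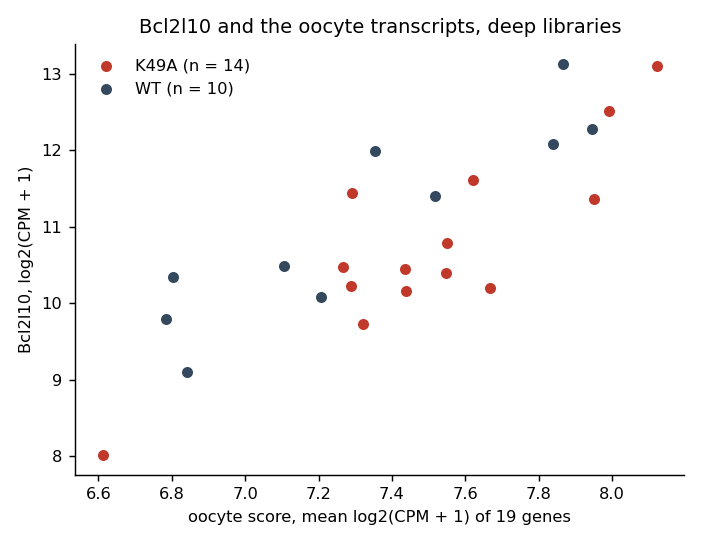
Bcl2l10, log2(CPM + 1), against the oocyte score, the mean log2(CPM + 1) of 19 oocyte genes, in 14 K49A and 10 WT deep libraries; a point is an embryo. Points of both groups rise together, with r = 0.87 in K49A and r = 0.90 in WT embryos. By rank, rho was 0.61 in K49A and 0.89 in WT embryos.

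Of the other 64 relations, 2 passed the adjusted threshold by Pearson's r and none did by rank. Mcl1 and the activation score gave r = 0.70 (permutation p = 0.00018, adjusted 0.00585) but rho = 0.47 (p = 0.0211, adjusted 0.215), and without the 2 embryos farthest from the median score, K49A replicates 4 and 10, r was 0.39 (permutation p = 0.0721). Over all embryos the Mcl1 relation therefore passed 0.05 only with those 2 included. It was r = 0.75 in the 14 K49A and r = 0.66 in the 10 WT embryos. Within plate columns r was taken over all tested embryos, deep or not. It was 0.76 and 0.79 in columns 3 and 6, which hold neither of the 2 embryos. In column 4, which holds both, it was 0.63, and in column 5 -0.63. Mdm2 and Bcl2l1 gave r = 0.65 (permutation p = 0.00074, adjusted 0.0160) and rho = 0.61 (p = 0.00199, adjusted 0.0647). Without the 2 embryos farthest from the median of Mdm2, r was 0.57. It was r = 0.61 in K49A and 0.70 in WT embryos. Over all 29 tested libraries r was 0.21 while rho was 0.61. Over all tested embryos of a plate column, this relation was 0.41, 0.90 and 0.46 in columns 3, 5 and 6. In column 4 it was -0.10. That column includes K49A replicate 22 and WT replicate 10, which are not deep, and Mdm2 had 0 counts in WT replicate 10. The relation in the deep libraries of column 4 alone was not tested.

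Ranking 7839 genes with at least 10 CPM on average by Spearman's rho over the 24 deep libraries gave those with the pattern most like that of 2 members. The 5 most like Bcl2l10 were Smim14 (rho = 0.90), Rnf5 (0.90), Cetn3 (0.88), Creb3l4 (0.88) and Rtl8a (0.88). Within K49A embryos alone their rho ran from 0.82 to 0.91 and within WT embryos from 0.84 to 0.90. The 5 most like Cdkn1a were Slc25a4 (0.85), Atp5d (0.80), Rpl5 (0.76), Eif4ebp1 (0.76) and Oip5os1 (0.75). For Cdkn1a the values within WT embryos were less even, from 0.54 for Slc25a4 and Oip5os1 to 0.94 for Atp5d. These values rank genes in these libraries and carry no test.

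The rest of the pathway gave 0 calls as well, in each of 5 lists. Of 17 genes that modify p53 or its inhibitors, all 17 were tested, 4 had a positive log2 fold change, 0 had an unadjusted p under 0.05 and the median was -0.16, against 0.11 over all tested genes. The most abundant were Rchy1, a ubiquitin ligase of p53, with a median of 569 TPM, Rybp at 245 TPM and the ligase Cop1 at 213 TPM. Their log2 fold changes were -0.20 ± 0.39, -0.36 ± 0.26 and -0.04 ± 0.41 (SE, adjusted p = 0.969, 0.847 and 0.995, edgeR). Beside Rybp, the smallest p values in the list were those of the deubiquitinase Usp10 (log2 fold change -0.57 ± 0.37), the phosphatase gene Ppm1d (-0.68 ± 0.52) and the ligase gene Ube4b (0.41 ± 0.32), all with adjusted p of 0.807 or more.

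Other p53 target genes showed the same absence of calls. Of 30 listed, 25 were tested, 11 had a positive log2 fold change, the median was -0.09, and 2 had an unadjusted p under 0.05. These 2 were Rrm2b, a ribonucleotide reductase subunit (136 ± 94.8 CPM in K49A embryos, log2 fold change 0.77 ± 0.35, adjusted p = 0.562), and Rps27l (1.35 ± 0.62, adjusted p = 0.570). Rps27l was the most abundant target, at a median of 1220 TPM, and reads may be shared with ribosomal protein copies of like sequence, so its value is uncertain. By CPM the median of Rps27l was lower in K49A embryos (198) than in WT embryos (218), while by TPM it was higher (1220 against 1171). K49A replicate 3, the embryo with the most Cdkn1a by CPM, was also highest for Rrm2b (423 CPM) and Rps27l (4693 CPM). By TPM, Cdkn1a was highest in K49A replicate 8, at 663 against 563 in replicate 3. Perp had a log2 fold change of 1.27 ± 0.67 and Pmaip1, which encodes NOXA, one of -1.07 ± 0.63. The abundant targets Ei24 (115 TPM) and Gadd45a (72.2 TPM) gave -0.15 ± 0.47 and -0.24 ± 0.43, with adjusted p of 0.980 and 0.964 in edgeR.

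Among the other members of the BCL-2 family, 10 of 18 were tested, 5 had a positive log2 fold change and the median was 0.01. The lowest p was that of Bad, a BH3-only gene (log2 fold change 1.33 ± 0.63, unadjusted p = 0.0413, adjusted p = 0.600, edgeR), with medians of 5.73 TPM in K49A and 1.57 TPM in WT embryos. Bik, also BH3-only, was the most abundant at a median of 78.9 TPM (log2 fold change -0.46 ± 0.47), followed by Bcl2l11, which encodes BIM, at 17.1 TPM (0.15 ± 0.42) and Bid at 16.4 TPM (0.54 ± 0.51). Bok gave 0.68 ± 0.55 and Bcl2l14 -0.82 ± 0.65. Each of the family members named here had a lower median than Bcl2l10, at 1705 TPM.

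Caspases and apoptosome genes had 20 of 25 members tested, 16 with a positive log2 fold change against 7272 of 12456 over all tested genes (58.4%), with a median of 0.18. Unadjusted p values under 0.05 numbered 0. The smallest were those of the executioner Casp6 (0.80 ± 0.56), the nuclease gene Endog (0.82 ± 0.66), the caspase-8 inhibitor Cflar (0.56 ± 0.50) and Aifm1 (0.51 ± 0.51), all on the log2 scale with SE. Cycs, the somatic cytochrome c, led by level at a median of 60.5 TPM (log2 fold change 0.36 ± 0.39), followed by Birc3 at 42.0 TPM and Diablo at 34.3 TPM.

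In the list of CDK inhibitors and p53 relatives, 8 of 9 genes were tested and 3 had a positive log2 fold change, with a median of -0.12. Trp73, the gene of the p53 relative p73, had medians of 25.6 TPM in K49A and 8.55 TPM in WT embryos and a log2 fold change of 1.04 ± 0.47 (SE, unadjusted p = 0.0322, adjusted p = 0.559, edgeR). Cdkn1c, which encodes p57, gave 1.27 ± 0.66 (adjusted p = 0.674). Cdkn2d (48.1 TPM), Cdkn3 (24.1 TPM) and Cdkn1c (14.1 TPM) were the most abundant, all below the 175 TPM of Cdkn1a. Cdkn2c and Cdkn2a had log2 fold changes of -0.45 ± 0.44 and -0.56 ± 0.72.

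Across 13 other settings and 29 left-out embryos, 0 members were called in each one. Bbc3, Ccng1, Cdkn1a and Mdm2 had a positive log2 fold change and Bcl2l10 a negative one in every one of these, whereas Trp53, Mdm4, Bax, Bcl2l1 and Mcl1 turned sign in at least 1. The 95% intervals of the members leave room for differences of the size of their upper bounds, 1.20 for Bax and 1.22 for Trp53 on the log2 scale, so a p above the threshold does not show equal levels.

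**Figure D5:**
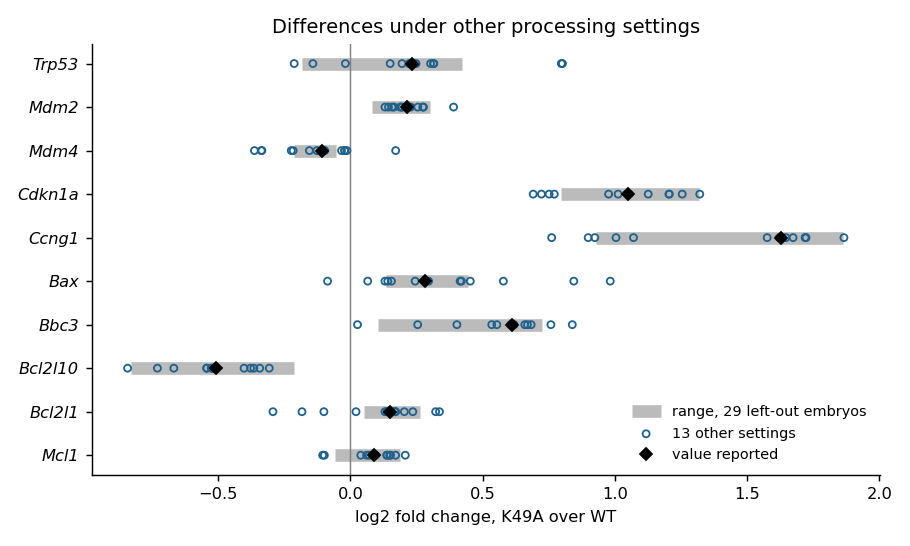
Log2 fold change of K49A over WT for each gene as reported (black diamond), over 29 fits that each leave out 1 embryo (grey bar, lowest to highest) and under 13 other settings of depth, normalization, test or samples (blue circles). Ccng1 spans 0.76 to 1.87 and Cdkn1a 0.69 to 1.32, both above 0, while the values of Trp53 lie on both sides of 0.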

How the data were processed

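Expected counts (RSEM-type estimated counts) for each gene were deposited by the authors, as was a TPM table normalized for length and depth by the authors. Per the submitters' processing notes the tools named are RSEM 1.3.3, STAR 2.7.8a, cutadapt 2.3 and FastQC 0.11.8, and the builds GRCm38 and mm10. Annotation release and use of strand are not given in the sources used here. As RSEM divides reads among similar sequences, genes with near-identical copies are uncertain. All expected counts were whole; 5 entries without a gene ID summed to 0 counts and were dropped. A smaller deposited count table of 32403 genes repeated the same counts, a deposited table named for FPKM repeated the TPM table, and neither was used.

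Libraries under 100000 counts were left out. Genes were filtered with filterByExpr, scaled by TMM and tested with the robust quasi-likelihood test of edgeR 4.0.16 (R 4.3.3) over all 12456 genes kept, with Benjamini-Hochberg adjustment at 0.05. CPM are counts per 1000000 after scaling. Intervals are 95%. Correlations used log2(CPM + 1), 100000 permutations, two-sided, and scipy 1.17.1. Alternatives used DESeq2 1.42.0 and limma 3.58.1 among others. The most alike libraries, K49A replicates 17 and 18, differed by a chi-square 21.2 times its degrees of freedom, so none was counted as a repeat. Upstream windows come from RefSeq (GRCm38.p6). The 10 members and all lists were chosen with earlier results of these data known. Genes named beyond the 10 are, per list, up to 4 with the smallest p and up to 3 with the highest median TPM. The 5 genes most like Bcl2l10 and Cdkn1a each are also named. Zmat3, Trp53i11, Kitl, Sparc and Nr5a2 were named after their values were seen, as were the blood cell markers.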

Additional observations from a re-analysis of the deposited data

Results flagged for a closer look

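Among the 10 deep WT libraries, 3 members had 1 embryo far above the others, with a gap to the next embryo larger than a Dixon test at 95% allows. Cdkn1a was at 480.2 CPM in WT replicate 19, and the next WT embryo had 225 CPM. Bcl2l10 was at 9007 CPM in WT replicate 20, against 4960 CPM in the next. Trp53 was at 179 CPM in WT replicate 22, against 109 CPM in the next. Chance flags about 1 in 20 groups if values are normally distributed, and 10 genes were looked at in this group. The CPM were not put on a log scale, and values with a long upper tail are flagged more often. The rate for these values was not tested. Groups of more than 10 embryos, the 14 deep K49A libraries among them, were not tested in this way.

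In libraries below the depth minimum, which entered no comparison, the abundant members were still counted. Mdm4 had 74 counts in WT replicate 3 and Bcl2l10 had 90 counts in WT replicate 11. Bcl2l10 had a count in 10 of these 19 libraries, 2 of 7 K49A and 8 of 12 WT, and Mdm4 in 4, all WT. These libraries held 68 to 732 counts in K49A and 58 to 39135 in WT, and no level was computed from them.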

How the results depend on the processing

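The number of called genes, 2 as reported, was 87 with DESeq2 (75 higher, 12 lower), 40 with limma voom and quality weights (26 higher, 14 lower), and 1126 with no filter on low counts. It was 4 with a minimum depth of 1000000 counts, in the deep libraries and with plate column as a factor, and 2 to 6 with 1 embryo left out. Members called were 0 under each setting; at an unadjusted p under 0.05 they were 0 to 2. Without the filter on low counts, 1 other p53 target gene was called, Trp53i11 (97 counts in K49A and 1 in WT, log2 fold change 4.57, adjusted p = 0.0355). Sign changes among members were Trp53 (-0.019 with TPM, -0.14 without the "dot" embryos, -0.21 with plate column, -0.18 to 0.42 with 1 embryo left out), Mdm4 (0.17 with TPM), Bax (-0.086 with voom), Bcl2l1 (-0.10 with plate column) and Mcl1 (-0.10 with voom, -0.10 with plate column, -0.059 to 0.19 with 1 embryo left out); the cause was not tested. Over all tested libraries r was 0.21 and rho 0.61 for Mdm2 and Bcl2l1.

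Replicate numbers occur in both groups for 9 pairs, of which 2 correlated above 0.1 and 0 matched best with their own number. With 9 pairs and no litter labels, this cannot decide whether the numbers pair embryos. Embryos of the same number stood in the same plate column. With the replicate number as a block 1 gene was called, and 0 in the same embryos without the block; Bcl2l1 was -0.29 with the block and -0.18 without it.

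Depth limits the scarce members: in the smallest tested library, K49A replicate 22, 3 counts equal 24.7 CPM, above the median of Bbc3 and Ccng1 in both groups.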
